A study of Mus musculus with 2 samples.

Results

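The genes Mir192, Mir194-1, Mir194-2 and Mir215 encode the miR-192, miR-194 and miR-215 microRNAs and lie in a pair of paralogous clusters, Mir215 with Mir194-1 on chromosome 1 and Mir192 with Mir194-2 on chromosome 19. They were picked by name: the 4 genes are those of 1973 miRNA genes in the count tables whose Ensembl identifiers map to these symbols, and all 4 were counted in both libraries. Both libraries were made from the intestine of mouse embryos of strain B6NCrl, taken at embryonic day 16.5 and pooled from males and females described as healthy, with RNA under 30 nucleotides sequenced. They are biological replicates of 1 group, so the study holds no contrast between conditions. Replicate 2 was a pool of 41 embryos, and replicate 1 a pool whose number of embryos the labels do not give.

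MicroRNAs are cut from hairpin transcripts, usually from 1 arm more than the other, and repress messenger RNAs that pair with the seed, bases 2 to 8 of the mature strand. The miR-192 and miR-215 seed family and miR-194 are known from gut epithelium, liver and kidney. In human and mouse epithelial cells their clusters are activated by hepatocyte nuclear factors of the HNF1 and HNF4 families, and in human tumour cells also by p53.

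The sequences of the 5p arms are shown because they set which genes can be told apart and which share targets by seed. They come from RefSeq on GRCm38.p6, in which all 4 genes were found, and capitals mark the seed.
mmu-miR-215-5p: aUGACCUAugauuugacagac
mmu-miR-192-5p: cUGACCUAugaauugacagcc
mmu-miR-194-5p: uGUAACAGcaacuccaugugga
Mir215 and Mir192 share the seed UGACCUA, and no other mouse entry of the 1738 mature entries in that table has it. Counted from the 5′ end, miR-215-5p and miR-192-5p differ by A1C, U12A and A20C (the miR-215 base first), so 18 of 21 bases are identical and none of the 3 substitutions lies in the seed. Both Mir194 genes give the same miR-194-5p with the seed GUAACAG, also found at no other locus in the table.

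The whole hairpins of the Mir194 genes show how little separates them, with the 5p arm in capitals.
Mir194-1: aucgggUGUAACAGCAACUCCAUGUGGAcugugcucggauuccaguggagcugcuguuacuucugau
Mir194-2: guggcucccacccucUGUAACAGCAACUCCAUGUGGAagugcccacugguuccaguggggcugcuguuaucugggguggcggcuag
Their longest shared stretch was 22 bases, exactly the 5p arm, and the bases on either side of it differ. Their 3p arms are given with the seed in capitals.
mmu-miR-194-1-3p: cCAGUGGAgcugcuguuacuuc
mmu-miR-194-2-3p: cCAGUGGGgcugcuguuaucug
The 3p arms differ by A8G, C19U, U20C and C22G (the Mir194-1 base first), with 18 of 22 bases identical, and A8G falls in the last base of the seed. A read of exactly miR-194-5p fits both loci, whereas a read of a 3p arm or one reaching past an end of the 5p arm can fit 1 of them. Reads that fit more than 1 locus are not in the gene counts. They made up 25.7% of the reads of replicate 2 and 26.2% of those of replicate 1. The levels of both Mir194 genes below therefore count only reads placed at 1 locus, and the share of miR-194 reads left out was not tested. Mir192 and Mir215 share at most 10 bases in a row with each other, and none of their windows of 20 bases occurs in another of 1005 mouse hairpins. Each Mir194 gene had 3 such windows, all of them shared with the other Mir194 gene. Only exact matches among these hairpins were searched, so matches elsewhere in the genome, or with mismatches, were not tested.

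The clusters have the same layout. On mm10 and on the plus strand, Mir194-1 (chromosome 1, 185313319 to 185313385) lies 195 bases before Mir215 (185313581 to 185313692), and Mir194-2 (chromosome 19, 6264643 to 6264728) lies 115 bases before Mir192 (6264844 to 6264932). The chromosome 1 cluster lies within the long noncoding RNA gene 2010103J01Rik on the same strand, with Mir215 inside an exon of it (185313530 to 185313803) and Mir194-1 in an intron. This cluster is also inside an intron of Iars2, which encodes the mitochondrial isoleucyl-tRNA synthetase, on the opposite strand. No annotated gene overlaps the chromosome 19 cluster, which starts 2308 bases after the end of the autophagy gene Atg2a and ends 11793 bases before the endocytic recycling gene Ehd1.

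The first question is how many of the counted miRNA reads of the fetal intestine came from each gene. Mir215 was far ahead of the other 3 genes in both libraries. Levels are in CPM, here the counts on a gene's own strand scaled to the library's total of such counts, which was 5680764 in replicate 2 and 4261976 in replicate 1. Mir215 had 29302 CPM in replicate 2, from 166457 counts, and 18486 CPM in replicate 1, from 78789 counts. Its exact Clopper-Pearson 95% intervals of 29163 to 29441 CPM and 18359 to 18615 CPM were far apart, and it ranked 8 in replicate 2 and 15 in replicate 1 among all genes. These intervals account for counting error alone, because reads copied from 1 molecule by PCR could not be recognised. Whether different miRNAs are recovered equally well as reads was not tested, so levels and ratios compare counts rather than molecules.

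Mir192, which carries the same seed, had 7504 CPM in replicate 2 (42626 counts) and 7516 CPM in replicate 1 (32033 counts). Its intervals of 7433 to 7575 CPM and 7434 to 7598 CPM overlapped almost entirely, and it ranked 27 and 29. Mir192 was thus the steadiest of the 4 genes on this scale, with an SD of 8.79 CPM around a mean of 7510 CPM (n = 2), against 23894 ± 7648 CPM for Mir215.

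The Mir194 genes were the lowest, with replicate 2 above replicate 1 at both. Mir194-2 had 4529 CPM in replicate 2 (25727 counts) and 3447 CPM in replicate 1 (14689 counts), or 3988 ± 765 CPM (SD, n = 2). Mir194-1 had 3726 CPM in replicate 2 (21168 counts) and 2685 CPM in replicate 1 (11445 counts), or 3206 ± 736 CPM (SD, n = 2). Mir194-2 stood above Mir194-1 within each library, but the range of one gene over both libraries overlapped that of the other. In the order Mir215, Mir192, Mir194-2, Mir194-1, this last step is the only one within the spread of the libraries.

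**Figure D1:**
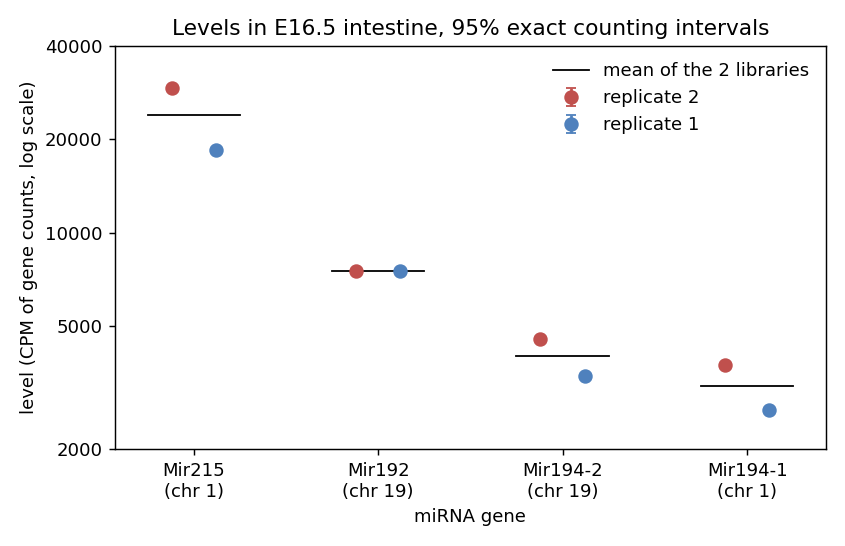
The plot shows the level of each gene in CPM on a log axis, with replicate 2 on the left and replicate 1 on the right of each pair, and a line at the mean. The 95% counting intervals are smaller than the points, the Mir192 points coincide near 7510 CPM, and the Mir215 points lie at 29302 and 18486 CPM.

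Together the 4 genes held 4.51% of the gene counts in replicate 2 (exact 95% interval 4.49% to 4.52%) and 3.21% in replicate 1 (3.20% to 3.23%), a mean of 3.86% ± 0.914 (SD, n = 2). Most of the gap between the libraries was Mir215: without it the other 3 genes held 1.58% in replicate 2 and 1.36% in replicate 1. The chromosome 1 cluster held 3.30% in replicate 2 and 2.12% in replicate 1, and the chromosome 19 cluster 1.20% and 1.10%. By gene family, Mir215 and Mir192 held 3.68% in replicate 2 and 2.60% in replicate 1, and the Mir194 genes 0.826% and 0.613%, with both arms of each hairpin in the count. Mir215 and Mir192 made up 81.7% of the 4 genes' counts in replicate 2 and 80.9% in replicate 1, a division that differed by less than 1 percentage point although the total did not. All reads placed at the Mir194 genes, 46895 in replicate 2 and 26134 in replicate 1, equal 1.68% and 1.14% of the number of reads that mapped to several loci.

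In the order of mean CPM over all genes, Mir215 was in place 10, Mir192 in place 28, Mir194-2 in place 43 and Mir194-1 in place 53. Around Mir215 stood the epithelial Mir429 (25905 ± 1936 CPM) and Mir99a above, and Mir17 (20824 ± 1267 CPM) and Mir23b below, all with libraries that overlapped the wide range of Mir215. Around Mir192 stood Mir20a and Mir93 above and Mir127 and Mir652 below. Mir20a (9365 CPM in replicate 2 and 8754 CPM in replicate 1) and Mir652 (6332 and 7375 CPM) were clear of Mir192 in both libraries, while Mir93 and Mir127 were not. Mir194-2 lay between Mir214 and Mir379 above and Mir182 and Mir18 below, and Mir194-1 between Mir141 and Mir382 above and Mir431 and Mir423 below. None of these 8 neighbours of the Mir194 genes differed from them beyond the spread of the libraries.

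The ratios of paralogs and of cluster partners are ratios of counts, formed within a library, and do not depend on how the libraries are scaled. Mir215 was 3.91 times Mir192 in replicate 2 (exact 95% interval 3.86 to 3.95) and 2.46 times in replicate 1 (2.43 to 2.49). The ratio of the chromosome 1 cluster to the chromosome 19 cluster was 2.74 in replicate 2 (2.72 to 2.77) and 1.93 in replicate 1 (1.91 to 1.95). In each case the chromosome 1 copy was ahead in both libraries, and the size of the lead differed between the libraries by more than counting error. The cluster ratio includes only uniquely placed reads of the Mir194 genes, so it is not a ratio of the clusters' full output.

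Among uniquely placed reads of the Mir194 genes, the chromosome 19 copy was ahead instead, and the ratio was far closer to even. Mir194-1 had 0.823 times the counts of Mir194-2 in replicate 2 (0.808 to 0.838) and 0.779 times in replicate 1 (0.760 to 0.798), or 0.801 ± 0.0309 (SD, n = 2). This ratio, and the ratios to the Mir194 partners that follow, rest on the Mir194 reads that can be placed at 1 locus. Which reads can be placed may differ between the loci, so the order of the copies in full miR-194 output was not tested. Within the chromosome 1 cluster, Mir215 was 7.86 times Mir194-1 in replicate 2 (7.75 to 7.98) and 6.88 times in replicate 1 (6.75 to 7.02). Within the chromosome 19 cluster, Mir192 was 1.66 times Mir194-2 in replicate 2 (1.63 to 1.68) and 2.18 times in replicate 1 (2.14 to 2.22). The ratio to the Mir194 partner was thus higher in replicate 2 on chromosome 1 and lower in replicate 2 on chromosome 19, with a change between the libraries of 1.14 and 0.760 times.

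**Figure D2:**
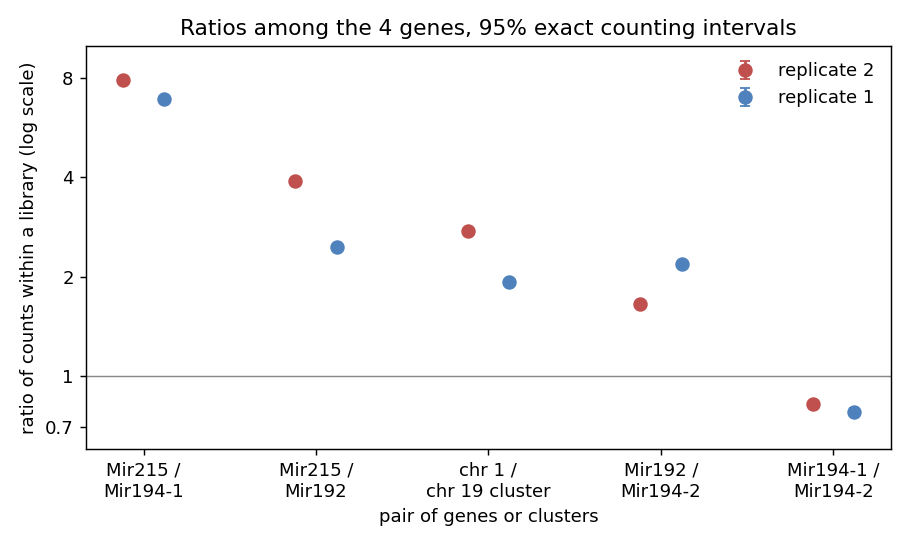
The plot shows the ratio of counts within a library on a log axis for 5 pairs, with replicate 2 left of replicate 1, 95% exact counting intervals (mostly smaller than the points) and a line at a ratio of 1. Mir215 exceeds both its partner and its paralog, Mir194-1 lies below Mir194-2, and Mir192 over Mir194-2 is the only ratio that is lower in replicate 2 (1.66) than in replicate 1 (2.18). The Mir194 counts hold only reads placed at 1 locus.

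The other question is how far the replicates differed at these genes. Of the 364 genes with at least 20 counts summed over the libraries, 189, or 51.9%, were called by an exact conditional binomial test (two-sided, Benjamini-Hochberg adjusted) with TMM scaling, a trimmed mean of ratios. Of all tested genes, 89, or 24.5%, were higher in replicate 2 and 100, or 27.5%, lower. All 4 genes entered the test, none through a level in only 1 library, and all 4 were called higher in replicate 2, with a median log2 ratio of replicate 2 to replicate 1 of 0.56, beside -0.02 over all tested genes. The only error this test knows is that of counting. It holds no estimate of how much pools of embryos vary, and at these depths very small ratios pass. At a size of at least 1.5-fold, 9 genes (2.47%) were called higher, and these included Mir215 and Mir194-1. The counting interval of Mir194-1 reached below 1.5-fold, and with total counts its ratio of 1.39-fold fell short of that size.

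The ratio was largest for the chromosome 1 genes. On the log2 scale it was 0.79 for Mir215 (95% counting interval 0.78 to 0.81), or 1.73-fold, and 0.60 for Mir194-1 (0.57 to 0.64), or 1.52-fold. On chromosome 19 it was 0.52 for Mir194-2 (0.49 to 0.55), or 1.44-fold, and 0.13 for Mir192 (0.11 to 0.15), or 1.09-fold. Among the 190 genes with a mean of at least 100 CPM, Mir215, Mir194-1 and Mir194-2 held places 1 to 3 by this ratio and Mir192 place 55. Among all 364 tested genes, they held places 11, 16 and 22, and Mir192 place 111. For Mir192 the direction depended on the scaling: with total counts in place of TMM, which lowers every log2 ratio by 0.13, the log2 ratio was -0.00239 and the exact test no longer passed (adjusted p = 0.869, against 6.23e-32 with TMM). The other 3 genes were higher in replicate 2 under both scalings, at 0.66 for Mir215, 0.47 for Mir194-1 and 0.39 for Mir194-2 with total counts, where 46 of the 364 genes (12.6%) were called higher and the median of all was -0.15.

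**Figure D3:**
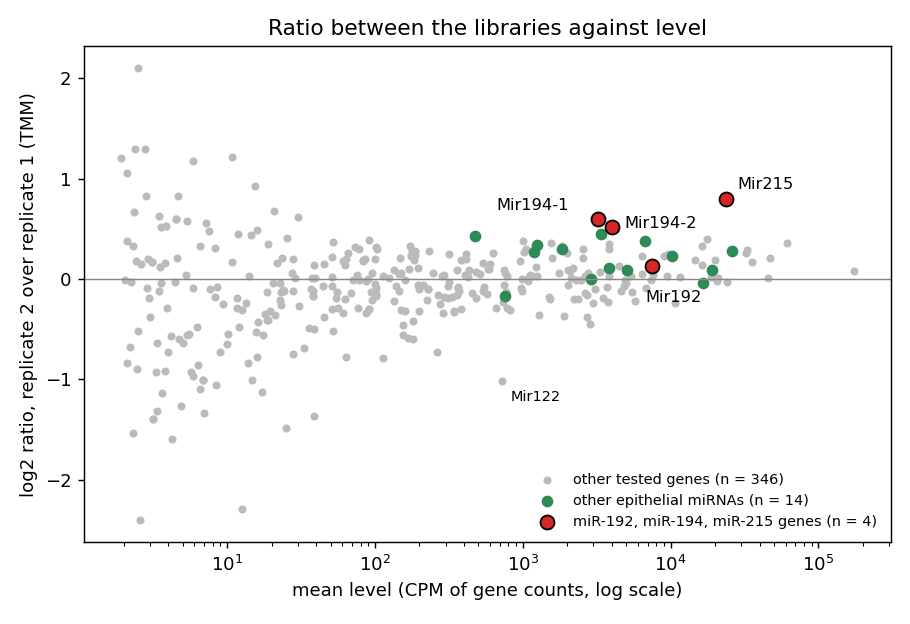
Each point is 1 of 364 tested genes, with its mean level in CPM on a log axis and the log2 ratio of replicate 2 to replicate 1 after TMM scaling. Mir215 (0.79), Mir194-1 (0.60) and Mir194-2 (0.52) lie above every other gene with a mean of at least 100 CPM, Mir192 (0.13) lies among the rest, and the hepatocyte gene Mir122 (-1.02) lies far below 0.

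The genes nearest in ratio were named by the same rule for each of the 4 genes. Of the 186 other genes with a mean of at least 100 CPM, the nearest in log2 ratio to each of Mir215, Mir194-1 and Mir194-2 were Mir141 (0.45), a miR-200 family gene, and Mir802 (0.43). The distance of Mir141 was 0.34 from Mir215, 0.15 from Mir194-1 and 0.07 from Mir194-2. Nearest to Mir192 were Mir379 and Mir337 (0.13 and 0.12), both genes of the imprinted Dlk1-Dio3 region. Mir215, Mir194-1 and Mir194-2 held places 1 to 3 by ratio at this level. Mir141 and Mir802, at places 4 and 5, were therefore bound to be nearest to all 3, which shows no likeness of behaviour. For Mir192 the likeness rests on a single ratio between 2 libraries.

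The ratios were also compared over a list of 14 other miRNA genes taken as epithelial. All 14 were tested, of which 11 were called higher in replicate 2, 2 lower and 1 neither, with a median log2 ratio of 0.25 against -0.02 for all tested genes. Of all 364 tested genes, 24.5% were called higher and 27.5% lower with TMM scaling. With total counts 8 of the 14 were called higher and 5 lower, and the median was 0.12. Under that scaling 46 of the 364 tested genes were called higher and 164 lower, with a median of -0.15. Among the 11 called higher with TMM scaling was Mir106b, with a log2 ratio of 0.09, and -0.04 with total counts. Whether each listed gene is confined to epithelium was not tested. The 4 most abundant were Mir429 (27273 CPM in replicate 2 and 24536 CPM in replicate 1), Mir200c (18902 and 19400 CPM), Mir375 of endocrine cells (15726 and 17643 CPM) and Mir200b (10663 and 9930 CPM). Mir141, Mir802, Mir203 (0.37), Mir31 (0.34), Mir200a (0.30), Mir429 (0.28), Mir96 (0.27) and Mir200b (0.23) had a larger log2 ratio than Mir192, and none had a larger one than Mir194-2. The 14 genes summed to 100932 CPM in replicate 2 and 97981 CPM in replicate 1. That gap was smaller than the one between the 45060 and 32134 CPM of the 4 genes. Taking both sets as 1 total, the 4 genes made up 30.9% of it in replicate 2 and 24.7% in replicate 1. In tissue, fewer cells of a type and less RNA per cell cannot be told apart.

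Genes listed for other cell types also differed between the libraries, and their part in these ratios was not tested. Whether each of them is confined to the cell type it is listed for was not tested either. Liver also makes miR-192 and miR-194, and the hepatocyte gene Mir122 had 448 CPM in replicate 2 and 994 CPM in replicate 1. Its log2 ratio was -1.02 with TMM scaling and -1.15 with total counts, and the share of liver in the counts of the 4 genes was not tested. Of 3 pancreatic genes, summed at 4.75 CPM in replicate 2 and 1.64 CPM in replicate 1, Mir217, the only pancreatic gene tested, was called higher in replicate 2 (4.05 CPM, against 0.939 CPM in replicate 1, a log2 ratio of 2.10), Mir216a had 0.704 and 0.235 CPM, and Mir216b had 0 counts in replicate 2 (the floor of 3 counts is 0.528 CPM there). The 10 genes listed for mesenchyme and smooth muscle summed to 206361 CPM in replicate 2 and 211788 CPM in replicate 1. Most of this came from Mir143 (170594 and 177010 CPM), and Mir145b was at 0 in both libraries. Of the 10, Mir143, Mir21a and Mir22 were called higher and 5 were called lower, beside 24.5% and 27.5% of all tested genes. With total counts 2 were called higher and 6 lower, where 46 of all 364 tested genes were higher and 164 lower. The endothelial Mir126a stood at 33590 CPM in replicate 2 and 30786 CPM in replicate 1 and was called higher (log2 ratio 0.26). The 5 blood genes with a row summed to 1289 CPM in replicate 2 and 1488 CPM in replicate 1. With TMM scaling 1 was called in each direction, beside 24.5% higher and 27.5% lower of all tested genes. With total counts 1 was called higher and 4 lower, beside 46 and 164 of all 364 tested genes. The 8 neural genes with a row summed to 1758 and 1531 CPM, almost all from Mir137, which was called higher in replicate 2 (log2 ratio 0.36). It was the only call among the 4 neural genes tested, and 3 of the 8 were at 0 in both libraries.

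Partners in a cluster are cut from a shared transcript where they share a promoter, so the log2 ratios of neighbours were also compared. In 68 pairs of neighbouring genes on 1 strand, less than 10 kb apart and each with a mean of at least 100 CPM, the log2 ratios of the partners differed by a median of 0.19. Mir215 and Mir194-1 differed by 0.19, at place 34 from the largest, and Mir192 and Mir194-2 by 0.40, at place 8. The chromosome 1 partners therefore stood in the middle of the pairs and the chromosome 19 partners near the upper end, below 7 pairs, the first of which was Mir20a and Mir92-1 (0.60). The pairs within 1 cluster share genes and are not independent, so these places are a description. In both pairs the Mir194 partner is counted only by uniquely placed reads. The other pairs are counted in the same way, and how many reads they lose by it was not tested.

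**Figure D4:**
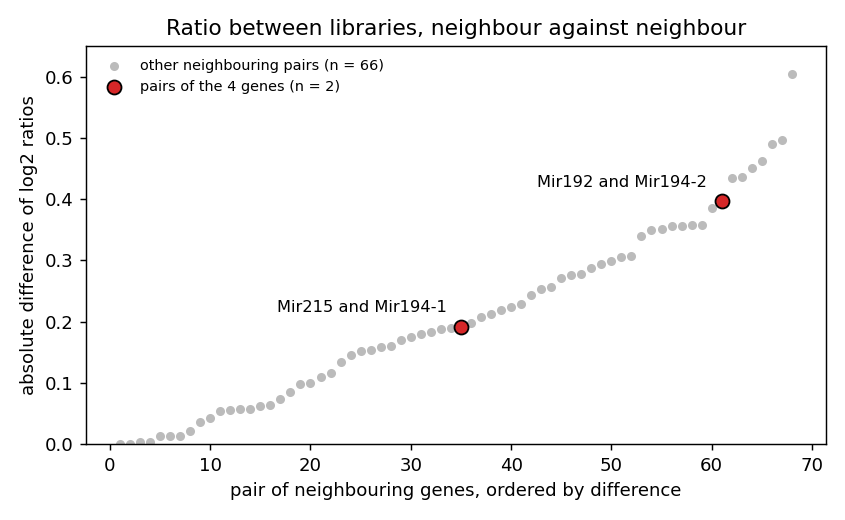
The plot orders 68 pairs of neighbouring genes by the absolute difference between the log2 ratios (replicate 2 over replicate 1) of the partners. Mir215 and Mir194-1 (0.19) lie in the middle and Mir192 and Mir194-2 (0.40) near the upper end.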

How the data were processed

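MicroRNA-seq was done on RNA under 30 nucleotides from 2 pools of E16.5 intestine. The values, as deposited by the authors, are raw counts of reads for each miRNA gene without normalization, on mm10 with GENCODE annotation M4, per the file headers of the readme texts. For the aligner, the counter and adapter trimming, names and versions were not given in the sources used here. Of 10876035 reads in replicate 2 and 8747512 in replicate 1, 52.2% and 48.7% were counted on the strand of a gene, 17.2% and 19.5% were unmapped, 2.88% and 3.69% lay outside the genes, and 0 were ambiguous. Totals cover the gene rows alone. The columns have no names. In each gene row the first equalled the sum of the other two, so the larger strand column was taken as the strand of the gene.

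Each read of a mature miRNA gives 1 count whatever the length of its hairpin, so CPM were not divided by length. Counts do not tell the 5p from the 3p arm. GENCODE M21, also on mm10, gave symbols and coordinates and held 1894 of 1973 identifiers (the others held 2 counts). With 1 group, edgeR's quasi-likelihood test has no contrast. The replicates were compared with exact conditional binomial tests over all 364 genes with at least 20 counts, with TMM effective library sizes (edgeR 4.0.16), a prior of 0.5 counts for log2 ratios and a threshold of 0.05. Alternatives were DESeq2 1.42.0 size factors, total counts, other count minimums, unstranded counts, Mir143 left out and other denominators. Leaving the 4 genes out of the scaling was added after seeing the data. The test was tested on simulated data (scipy 1.17.1). The simulated counts held counting error alone and no variation between pools, so they cannot show how the test handles such variation. The genes, lists and naming rules were chosen with earlier results of these data known. Named besides the 4 genes were their neighbours in level and in ratio, the 4 most abundant listed epithelial genes with any above a member in ratio, and Mir122. Mir126b and the listed blood and neural genes without a row were not analysed here, and other genes named were chosen after their values were seen.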

Additional observations from a re-analysis of the deposited data

Results flagged for a closer look

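Opposite-strand reads, which enter the levels and ratios only in the unstranded alternative, passed the limit of 3 counts at 1 of the 4 genes. Mir194-1 had 4 opposite-strand counts in replicate 2 and 0 in replicate 1, beside 21168 and 11445 counts on its own strand. Mir192 had 0 in replicate 2 and 1 in replicate 1, and Mir194-2 and Mir215 had 0 in both.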

How the results depend on the processing

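The log2 ratios of replicate 2 to replicate 1 kept their direction and their side of the threshold in 23 of 24 alternatives for the 4 genes. The exception was Mir192 with total counts, at -0.00239 (adjusted p = 0.869 in the exact test, against 2.04e-54 to 2.52e-26 in its other alternatives), because total counts lower every log2 ratio. Over all genes, 189 calls became 40 when a ratio of at least 1.5-fold was also required (9 higher and 31 lower), and 174 to 210 in the other alternatives. With total counts the split was 46 higher and 164 lower, against 89 and 100. Divided by all reads of the library, counted or not, the share of the 4 genes was 1.96% instead of 3.86%, by the larger denominator. Of 12 alternatives for single levels that kept both libraries, 7 moved by more than the SD of the replicates, mostly through the denominator. Each library alone gave a share of 3.21% to 4.51%, a ratio of Mir215 to Mir192 of 2.46 to 3.91, a cluster ratio of 1.93 to 2.74 and a ratio of Mir194-1 to Mir194-2 of 0.779 to 0.823. No paired analysis was possible because both libraries form 1 group. Depth did not limit these genes, at 11445 counts or more. Reads that fit more than 1 locus are missing from the gene counts, including those of the Mir194 genes.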
